A study of Rattus norvegicus with 24 samples.

Results

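Ribosomes are built in the nucleolus, where RNA polymerase I transcribes the ribosomal DNA, small nucleolar ribonucleoproteins (snoRNPs) modify the pre-rRNA, and a large set of assembly factors cuts and folds it into the small and the large subunit. Dividing and growing cells, including the neural progenitors of the embryonic forebrain, make many ribosomes, and many genes of this program are known targets of Myc, a transcription factor that binds the E-box CACGTG. The 40 ribosome biogenesis genes described here were listed by symbol and are nucleolar processing factors and RNA polymerase I genes. Of these, 39 were found among the 17420 genes of the deposited table and all 39 were tested, together with 12653 genes in all that were above the authors' offset in all 24 pups. Rrp12 was not analysed here.

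RNA sequencing was performed on the hippocampus and neocortex of 24 Sprague-Dawley rat pups on embryonic day 18, in 4 groups of 6 pups that differed in what the dam received. Saline dams and MAM dams were injected with saline or with methylazoxymethanol acetate (MAM, 22 mg/kg, i.p.), a DNA-alkylating antimitotic agent, on gestational day 17. Poly I:C dams received an injection of 7.5 mg/kg of polyinosine:cytosine, a double-stranded RNA that evokes a maternal immune response, on the same day and by the same route. Low Protein dams ate a diet with 6.1% protein from gestational day 11 to 18, against 20.3% in the control diet, and all tissue was taken on gestational day 18, which was 18 hours after the injections. Every group was made up of 2 litters with 3 pups each, so a treatment was given to the dam while the spread was measured between pups. Whether Low Protein dams were also injected, and what the injected MAM and Poly I:C dams ate, is not given in the sources used here. The pups are numbered by litter and pup, so that Saline 2.1 is the first pup of the second saline litter.

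The deposited values are TPM, scaled to a fixed total and to a length that, judged from the steps of low values, is the genomic span with introns, so a high value can come with a short span. The table has no read counts. From the step that 1 read is worth, the depth was estimated at 24.9 to 64.3 M (megareads) per pup, with medians of 33.7 M in saline, 42.2 M in MAM, 44.1 M in Low Protein and 30.7 M in Poly I:C pups. Among 38 members, with Nhp2 left out, the lowest single value, that of Gar1, stood for about 290 reads, a depth at which counting error is part of the spread between pups. The estimate for Nhp2 was 0.87 reads at the lowest and 1.40 at the median. It was left out because the length that the authors used for this gene was not checked. The correlation between pups over all genes tested was 0.979 to 0.996. The cortical markers were present in every group, with 9 of 10 in the table, none at the offset in every pup and a summed value of 219 to 407 in saline, 329 to 397 in MAM, 282 to 422 in Low Protein and 332 to 445 in Poly I:C pups. Pup Saline 2.1 had the lowest value of its group for 19 of the 39 members, Low Protein 2.3 for 21 and Poly I:C 1.3 for 22, while Poly I:C 1.3 also had the highest value for 8. Results that rest on these pups or on 1 litter are given with and without them.

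Promoter sequence was available for 36 members in the RefSeq tables of the GRCr8 assembly. Bop1, Rrs1 and Wdr43 had none and were not searched. The E-box CACGTG, which reads the same on both strands, was searched in the 250 bases before the start of each gene and was found in 7 of 36 members (19.4%), namely Dkc1, Gnl3, Mybbp1a, Pes1, Rrp1, Utp20 and Utp4. It was found in 5.59% of all 33469 promoters and in 7.95% of the 9715 promoters of tested genes. A match of letters does not show that a factor binds there. Of these 7 members, only Utp4 and Utp20 were called lower in MAM than in Poly I:C pups (limma, unadjusted p under 0.05). Of the 39 members 14 were, against 14.7% of all genes, and these 14 include Wdr43, which was not searched. Gnl3 missed that threshold at a log2 difference of -0.23 with an SE of 0.12 (exact two-sided permutation p = 0.00866). It was called when only the 12 pups compared were fitted. The windows of 4 members are shown 5′ to 3′ on the strand of the gene with the E-box in capitals, at chr19:51702191-51702240 (Utp4, plus strand), chr7:25102946-25103001 (Utp20, minus strand), chr16:6219783-6219832 (Gnl3, minus strand) and chrX:157751442-157751497 (Dkc1, plus strand), because these members carry the same letters, and 2 of them (Utp4 and Utp20) were called lower in MAM than in Poly I:C pups while Gnl3 and Dkc1 were not.
Utp4: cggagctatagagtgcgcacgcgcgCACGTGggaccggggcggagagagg
Utp20: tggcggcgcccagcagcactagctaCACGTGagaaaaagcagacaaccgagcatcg
Gnl3: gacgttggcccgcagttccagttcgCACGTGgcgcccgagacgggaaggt
Dkc1: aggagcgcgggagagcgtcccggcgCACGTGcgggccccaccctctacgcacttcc

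Across the 39 genes, the largest separation was between MAM pups and the pups of the other treatments. MAM pups had the lowest group mean for 26 of the 39 members and the highest for 3. Poly I:C pups had the highest mean for 20 members, Low Protein pups for 15, and saline pups the lowest mean for 12. These are orders of means, and most neighbours in them did not differ beyond their spread. A low MAM mean was also common over all genes tested. Of all genes, 71.5% had a lower mean log2 value in MAM than in saline pups and 64.7% a lower one than in Poly I:C pups. For 65.3% the mean was higher in Low Protein than in MAM pups. In the F test over the 4 groups (limma, unadjusted p under 0.05), 7 members differed, Utp4, Wdr43, Ddx21, Nop56, Polr1b, Nop14 and Wdr12, against 12.8% of all genes tested. None of the 39 passed an adjusted p of 0.05 in this test, which 0.158% of all genes did. In these bulk samples, fewer cells of a type and less RNA per cell cannot be told apart.

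Scores per pup, the mean log2 value over the 39 members minus the saline mean, describe the same order and were not tested. They ran from -0.12 to 0.10 in saline, from -0.11 to 0.00 in MAM, from -0.04 to 0.14 in Low Protein and from -0.01 to 0.11 in Poly I:C pups. MAM pups lay within the range of saline pups. Both MAM litters had a mean score of -0.06, and the Poly I:C litters had 0.06 and 0.07, whereas the Low Protein litters had 0.10 and 0.03. The spread of the saline pups was 0.0771 (SD, n = 6), wider than each shift of a group mean from saline, which was -0.06 for the MAM group and 0.07 for both other treatments.

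**Figure D1:**
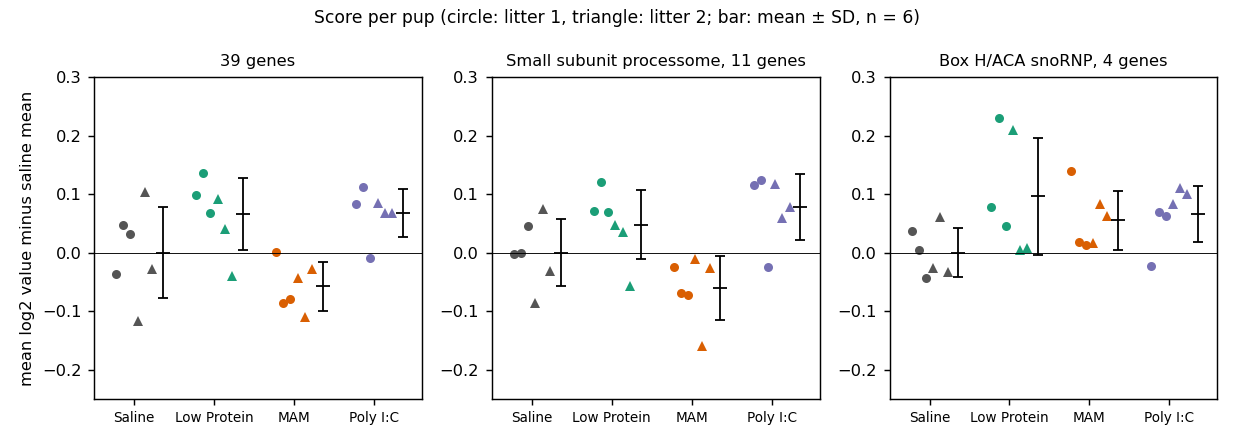
Score of each pup (y axis, mean log2 value minus the saline mean) for all 39 genes, the 11 small subunit processome genes and the 4 box H/ACA genes, by group (x axis). Circles are litter 1, triangles litter 2 and bars the mean ± SD of 6 pups. For the 39 genes the MAM pups lie between -0.11 and 0.00 and overlap with the saline pups, while the box H/ACA score of MAM pups lies at or above 0.01.

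The comparison of each treatment with saline asks whether the treatment moved these genes away from control pups, and the 3 comparisons share the 6 saline pups. No member passed an adjusted p of 0.05 in any of them (limma). At an unadjusted p under 0.05, MAM pups had lower values of 3 members, Poly I:C pups higher values of 2 and Low Protein pups higher values of 1. In each of these comparisons, the members' count was near or below the share of all genes.

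In MAM pups, 3 of 39 members were lower than in saline pups against 7.91% of all genes, none was higher against 2.13%, and no member passed the adjusted p that 0.0158% of all genes passed. Wdr43 encodes a factor of the early small subunit processome that couples rDNA transcription to pre-rRNA processing. Its lowest, median and highest values were 0.695, 0.752 and 0.811 in saline, 0.631, 0.667 and 0.689 in MAM, 0.680, 0.746 and 0.794 in Low Protein and 0.733, 0.785 and 0.828 in Poly I:C pups. All 6 MAM pups lay below all 6 saline pups, although the highest MAM pup and the lowest saline pup were close together. The mean was 0.662 ± 0.0230 in MAM and 0.749 ± 0.0476 in saline pups (SD, n = 6), a log2 difference of -0.18 with an SE of 0.05 (limma, adjusted p = 0.490, exact two-sided permutation p = 0.00216, the smallest that 6 pups against 6 allow). It was the only 1 of 39 members with no overlap between these groups, against 0.901% of all genes. The unadjusted call was lost with litter means and with the trend on genomic span removed, where the log2 difference was -0.08.

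Nop56 encodes a core protein of the box C/D snoRNP, which guides 2′-O-methylation of rRNA. Values in MAM pups ran from 16.2 over a median of 16.5 to 17.8, against 16.9, 19.6 and 20.5 in saline, 18.0, 19.6 and 21.4 in Low Protein and 17.5, 18.7 and 19.9 in Poly I:C pups. MAM pups were low as a group, and their highest pups overlapped with the lower saline pups. The mean of 16.7 ± 0.600 in MAM against 19.1 ± 1.57 in saline pups gave a log2 difference of -0.19 with an SE of 0.06 (limma, adjusted p = 0.490, exact permutation p = 0.0130). The unadjusted call was lost with the median-of-ratios scaling.

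Noc2l encodes a nucleolar factor that takes part in export of large subunit precursors. Its values were 5.26, 5.37 and 6.19 in saline (lowest, median, highest), 3.95, 4.96 and 5.64 in MAM, 5.16, 5.43 and 5.70 in Low Protein and 4.88, 5.29 and 6.50 in Poly I:C pups. The MAM pups were spread widely, and the ranges overlapped. The log2 difference between MAM and saline pups was -0.19 with an SE of 0.08 (limma, adjusted p = 0.495, exact permutation p = 0.0325). This call was lost with litter means, with both other scalings, with the trend on span removed, and without MAM 2.1, MAM 2.3, Saline 2.2, the second MAM litter or the second saline litter, with the difference at -0.31 to -0.07 over all pups and litters left out.

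The median log2 difference of the 39 members between MAM and saline pups was -0.07, which was also the median of all genes tested. With the median-of-ratios scaling, the median of all genes rose to -0.01 and that of the members to -0.00, 1 member (Wdr43) was called lower and 2 (Dkc1 and Polr1c) higher, and the split of all genes changed from 2.13% higher and 7.91% lower to 5.09% higher and 2.93% lower. Without Saline 2.1, 10 members were lower in MAM pups, namely Brix1, Ddx21, Ncl, Noc2l, Nop14, Nop56, Nop58, Utp4, Wdr12 and Wdr43. Without the second saline litter the count was 5. The shares of all genes in these refits were not set beside the counts, so the counts are not read as a result about the members. Such shares moved when 1 pup was left out. The share of all genes lower in MAM pups was 11.0% without MAM 2.1 and 4.76% without MAM 2.2. Microglia markers moved in the same comparison, with 3 of 7 higher in MAM pups, a summed value of 9.91 to 11.6 in saline and 11.5 to 14.4 in MAM pups, and none of the 7 was at the offset in every pup. Of the other lists, dividing progenitors had 3 of 13 higher, blood 2 of 8 higher, postmitotic neurons 2 of 10 lower (9 of 10 below 0) and ganglionic eminence and striatum 2 of 9 lower (all 9 below 0). Saline 2.1 stood apart in tissue markers, with the lowest mean of the cortical genes of all 24 pups, -0.60 on the log2 scale from the saline mean, and the highest of the ganglionic eminence and striatum genes, 0.85. The part of these markers in the result was not tested.

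In Poly I:C pups, 2 members were higher than in saline pups against 3.96% of all genes, none was lower against 5.48%, and the adjusted p was passed by none of the members and by 0% of all genes. Utp4 encodes a subunit of the UTP-A complex, which binds the nascent pre-rRNA first. Its values were 0.694, 0.795 and 0.867 in saline (lowest, median, highest), 0.663, 0.759 and 0.786 in MAM, 0.768, 0.829 and 0.904 in Low Protein and 0.862, 0.905 and 0.937 in Poly I:C pups. Poly I:C pups were the high group, and the highest saline pup reached just into their range. The log2 difference from saline was 0.18 with an SE of 0.06 (limma, adjusted p = 0.356, exact permutation p = 0.00649).

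Ddx21 encodes an RNA helicase that works in rDNA transcription and pre-rRNA processing. Its values were 2.98, 3.68 and 4.07 in saline, 2.95, 3.31 and 3.55 in MAM, 3.26, 3.89 and 4.23 in Low Protein and 4.01, 4.10 and 4.30 in Poly I:C pups. Poly I:C pups were the most uniform, with a coefficient of variation of 2.82%, the smallest of the 39 members in that group. The log2 difference from saline was 0.19 with an SE of 0.07 (limma, adjusted p = 0.406, exact permutation p = 0.00649).

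Polr1b, the second largest subunit of RNA polymerase I, was next in order. Its values were 0.567, 0.616 and 0.685 in saline, 0.484, 0.578 and 0.610 in MAM, 0.535, 0.704 and 0.749 in Low Protein and 0.610, 0.690 and 0.747 in Poly I:C pups. The ranges of Poly I:C and saline pups overlapped, and the log2 difference of 0.14 with an SE of 0.08 did not pass the unadjusted threshold in limma (adjusted p = 0.580, exact permutation p = 0.0368). Over the 39 members, the median log2 difference was 0.07 and 35 lay above 0, against a median of 0.00 and 51.0% above 0 over all genes. Markers of dividing progenitors were called higher for 3 of 13, with 12 of 13 above 0 and a median of 0.15, and thalamus markers for 1 of 5, with all 5 above 0, and their part in the result was not tested. With the median-of-ratios scaling the count called was 4, and with litter means in place of pups it was 0. With upper-quartile scaling the split of all genes moved from 3.96% higher and 5.48% lower to 3.23% and 8.24%.

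In Low Protein pups, 1 member was higher than in saline pups against 2.65% of all genes, none was lower against 4.55%, and none passed the adjusted p, as 0% of all genes did. Gar1 encodes a protein of the box H/ACA snoRNP, which guides pseudouridylation. Its values were 1.17, 1.39 and 1.65 in saline (lowest, median, highest), 1.31, 1.42 and 1.67 in MAM, 1.39, 1.55 and 1.76 in Low Protein and 1.35, 1.51 and 1.61 in Poly I:C pups. The ranges of all 4 groups overlapped. The log2 difference between Low Protein and saline was 0.18 with an SE of 0.08 (limma, adjusted p = 0.688), and the exact permutation p of 0.0714 did not pass 0.05.

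Emg1, a methyltransferase of the small subunit pre-rRNA, had values of 3.38, 3.68 and 3.84 in saline and 3.80, 3.90 and 4.16 in Low Protein pups. The groups overlapped little. The log2 difference was 0.12 with an SE of 0.06 (limma, adjusted p = 0.696, exact permutation p = 0.00866), and in limma it missed the unadjusted threshold. Nop16, a large subunit assembly factor, had values of 5.11, 5.30 and 5.62 in saline and 5.28, 5.75 and 6.18 in Low Protein pups, with a log2 difference of 0.10 and an SE of 0.05 (limma, adjusted p = 0.717, exact permutation p = 0.0281).

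The 39 members had a median log2 difference of 0.07 between Low Protein and saline pups, with 34 above 0. Over all genes the median was -0.01 with 45.2% above 0. Ganglionic eminence and striatum markers were called lower for 3 of 9, with all 9 below 0 and a median of -0.38, cortical markers were called higher for 2 and lower for 1 of 9, and 12 of 13 dividing progenitor markers lay above 0 with none called. Their part in the result was not tested. The count of calls was small in most settings and depended on single pups and litters. It was 0 without Saline 2.1, without Saline 1.1 or without Low Protein 2.1, and 7 without the second Low Protein litter. With the median-of-ratios scaling it was 4, and the split of all genes moved from 2.65% higher and 4.55% lower to 3.97% and 3.89%.

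**Figure D2:**
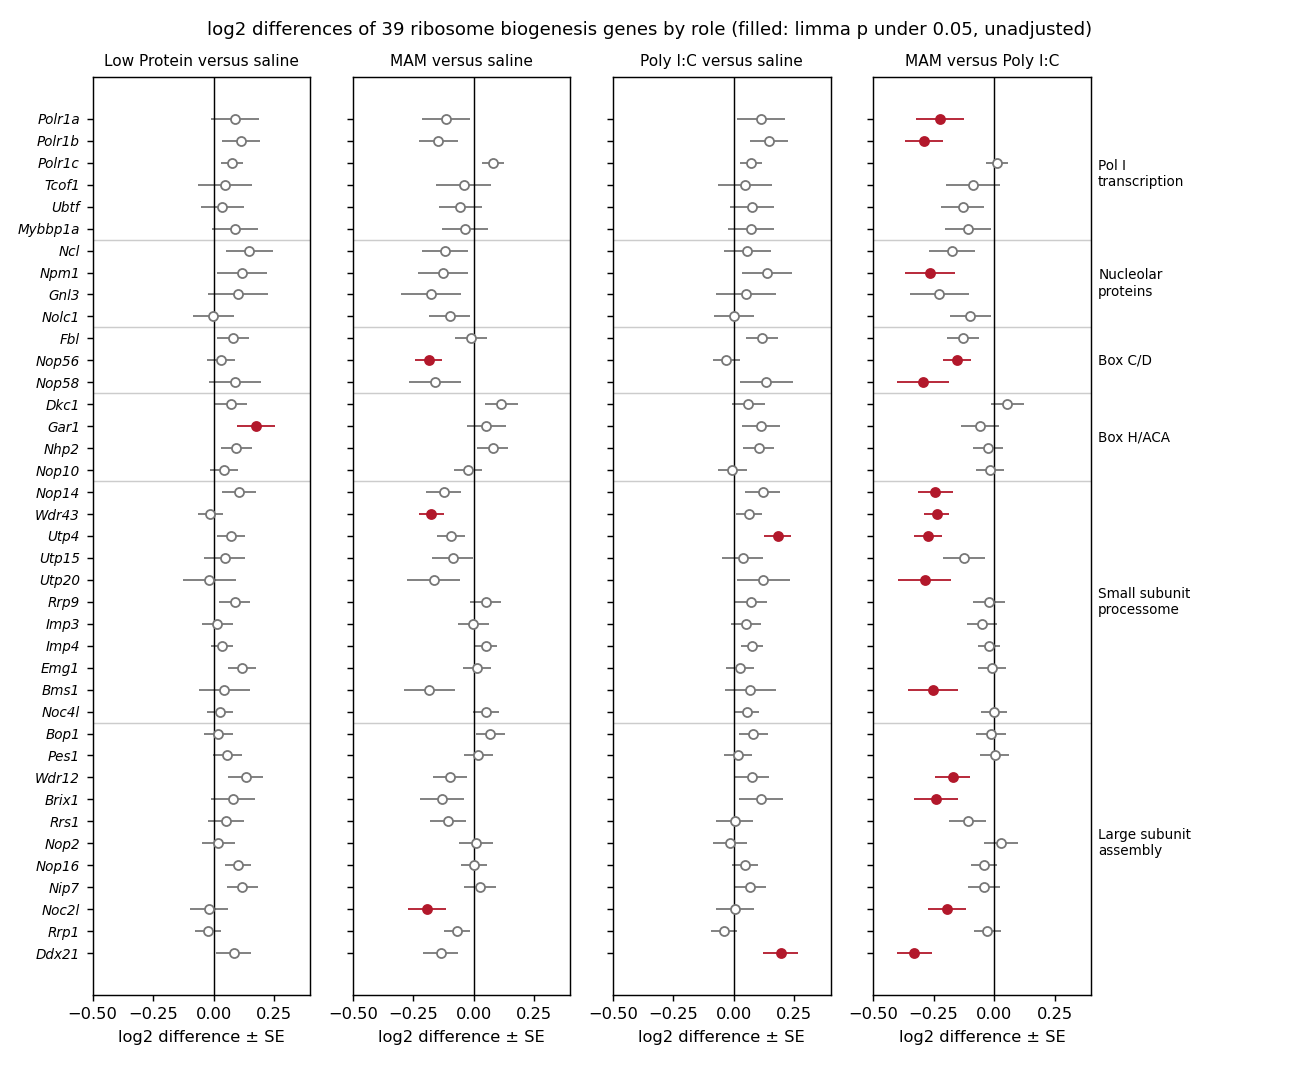
log2 differences (x axis, ± SE from limma) of the 39 genes (y axis, by role) in 4 comparisons, filled where the unadjusted p was under 0.05. Against saline 1, 3 and 2 members are filled, while 14 are filled in MAM versus Poly I:C, all of them lower in MAM.

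The comparisons between treatments do not use the saline mean. MAM and Poly I:C were both injected on the same day, and here 14 of 39 members (35.9%) were lower in MAM pups against 14.7% of all genes, and none was higher against 3.7%. An adjusted p under 0.05 was reached by 3 members, Utp4, Wdr43 and Ddx21, against 0.822% of all genes. Which members these were depended on the filter and scaling. With the study's filter (lowest group mean above 1), which does not test Utp4 and Wdr43, they were Ddx21 and Nop14. With the median-of-ratios scaling only Ddx21 passed, and with upper-quartile scaling Ddx21 and Wdr43. The pups of both groups did not overlap for 5 members, Utp4, Wdr43, Ddx21, Polr1b and Nop14, against 3.37% of all genes. The median log2 difference of the members was -0.11 with 35 of 39 below 0, against -0.06 over all genes with 64.7% below 0.

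By role, the 14 members were spread over RNA polymerase I (2 of 6), the abundant nucleolar proteins (1 of 4), box C/D (2 of 3), the small subunit processome (5 of 11) and large subunit assembly (4 of 11), with none of the 4 box H/ACA genes. Utp4 was 0.746 ± 0.0457 in MAM pups, against 0.901 ± 0.0325 in Poly I:C pups (SD, n = 6), a log2 difference of -0.27 with an SE of 0.06 (limma, adjusted p = 0.0306, exact permutation p = 0.00216). Every MAM pup lay below every Poly I:C pup, and both litters of each group shared this order, with litter means of 0.769 and 0.723 for MAM, and of 0.898 and 0.903 for Poly I:C.

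Wdr43 differed by -0.24 on the log2 scale with an SE of 0.05 (limma, adjusted p = 0.0345, exact permutation p = 0.00216). Its litter means were 0.658 and 0.666 for MAM, and 0.799 and 0.763 for Poly I:C. Ddx21 had the largest log2 difference of the 39 members, -0.33 with an SE of 0.07, from 4.13 ± 0.116 in Poly I:C to 3.29 ± 0.222 in MAM pups (SD, n = 6, limma, adjusted p = 0.0345, exact permutation p = 0.00216). The highest MAM pup, at 3.55, was well below the lowest Poly I:C pup, at 4.01.

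Polr1b was 0.565 ± 0.0490 in MAM pups, against 0.690 ± 0.0465 in Poly I:C pups, a log2 difference of -0.29 with an SE of 0.08 (SD, n = 6, limma, adjusted p = 0.0704, exact permutation p = 0.00216). The pups did not overlap but nearly touched, at 0.6101 for the highest MAM pup and 0.6102 for the lowest Poly I:C pup. Nop14, which is needed for early steps of small subunit maturation, had values of 0.914, 1.12 and 1.24 in saline, 0.920, 1.03 and 1.08 in MAM, 1.06, 1.19 and 1.33 in Low Protein and 1.13, 1.20 and 1.30 in Poly I:C pups. Its log2 difference was -0.24 with an SE of 0.07 (limma, adjusted p = 0.0875, exact permutation p = 0.00216), and all 6 MAM pups lay below all 6 Poly I:C pups.

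The other called members had unadjusted support only. In the box C/D group, Nop58 differed by -0.29 with an SE of 0.11 and Nop56 by -0.15 with an SE of 0.06 on the log2 scale. Among the small subunit factors, Utp20, a large scaffold protein of the pre-ribosome, differed by -0.29 with an SE of 0.11, and Bms1, a GTPase of the processome, by -0.25 with an SE of 0.10. Among the large subunit factors, Brix1 differed by -0.24, Noc2l by -0.20 and Wdr12, a partner of Pes1 and Bop1 in the PeBoW complex, by -0.17. Polr1a, the largest subunit of RNA polymerase I, differed by -0.23. Their adjusted p in limma lay between 0.149 and 0.220.

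Npm1, the abundant nucleolar chaperone, differed by -0.26 with an SE of 0.10 (limma, adjusted p = 0.177). Its values in Poly I:C pups were 11.1 at the lowest, 11.3 at the median and 15.7 at the highest, so that 1 pup stood apart, against 9.29, 9.72 and 11.1 in MAM pups. Npm1 has processed pseudogenes. The authors counted by the E/M method of Partek, but the settings with which it divided reads among near-identical copies are not given in the sources used here. The values of Npm1 are therefore uncertain.

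**Figure D3:**
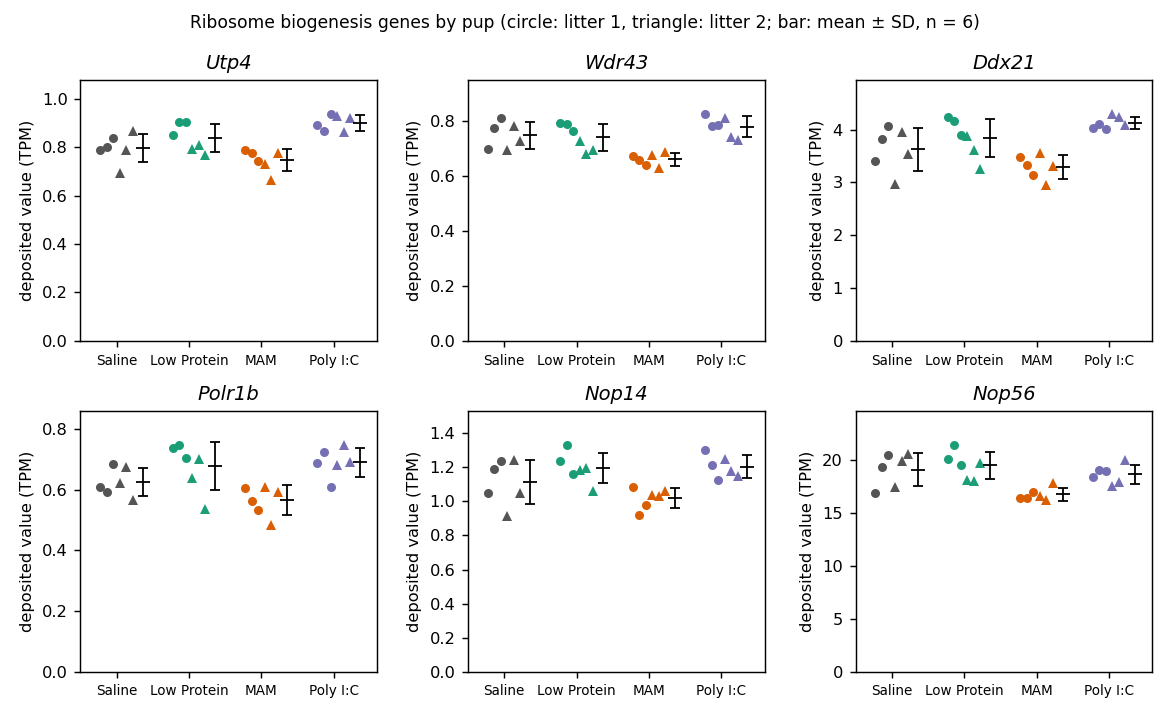
Deposited values (y axis, TPM, from 0) of 6 genes in each pup by group (x axis), with litter 1 as circles, litter 2 as triangles and bars for the mean ± SD of 6 pups. For Utp4, Wdr43, Ddx21, Polr1b and Nop14 the MAM pups all lie below the Poly I:C pups, while for Nop56 they do not overlap with the Low Protein pups.

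Other members were close to 0 in the same comparison. The box H/ACA genes, whose complex makes pseudouridines and also holds telomerase RNA, gave -0.06 for Gar1, 0.05 for Dkc1, the pseudouridine synthase, -0.02 for Nop10 and -0.03 for Nhp2, with SEs of 0.06 to 0.08. Nhp2 was listed at 0.00782 to 0.0105, and its level was not compared with other genes because the length that the authors used for it was not checked. In large subunit assembly, Pes1 gave 0.00 and Bop1 -0.01, each with an SE of 0.06, unlike Wdr12 of the same complex. In the small subunit group, Imp3 gave -0.05, Imp4 -0.02, Emg1 -0.01, Rrp9 -0.02 and Noc4l -0.00. A difference of this size does not show that the levels were equal. Whether Wdr12 differed from Pes1 and Bop1 in its response was not tested.

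The highest deposited values per genomic span in each role were those of Ubtf, Ncl, Nop56, Nop10, Imp3 and Rrs1, an order that largely follows span for short genes. Imp3, with a span of 0.889 kb, had a median of 1333 estimated reads, below the 1771 of Imp4. Ubtf, the upstream binding factor of RNA polymerase I, had values of 7.84, 9.12 and 10.7 in saline, 8.00, 9.09 and 9.81 in MAM, 8.12, 9.79 and 11.0 in Low Protein and 8.08, 10.1 and 10.8 in Poly I:C pups. Ncl, nucleolin, had values of 13.0, 17.5 and 19.6 in saline, 13.7, 15.9 and 16.9 in MAM, 17.3, 18.5 and 20.3 in Low Protein and 15.1, 17.5 and 19.8 in Poly I:C pups. Ubtf overlapped in all groups, and Ncl separated Low Protein from MAM pups only.

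Nop10, a small H/ACA protein, had values of 40.03, 42.5 and 45.9 in saline, 36.8, 43.1 and 44.9 in MAM, 39.5, 44.4 and 48.2 in Low Protein and 37.7, 43.4 and 45.3 in Poly I:C pups. Imp3, a U3 snoRNP protein, had values of 29.4, 32.5 and 35.7 in saline, 29.6, 32.6 and 35.5 in MAM, 29.7, 33.9 and 35.4 in Low Protein and 30.1, 33.7 and 37.4 in Poly I:C pups. Rrs1, a factor that brings 5S RNA into the large subunit, had values of 11.0, 12.4 and 14.0 in saline, 11.0, 11.6 and 12.0 in MAM, 10.9, 12.8 and 15.4 in Low Protein and 10.8, 12.5 and 14.4 in Poly I:C pups. All 4 groups overlapped in each of these genes. Within a group, the coefficient of variation over pups ran from 2.54% (Rrp1 in Low Protein) to 20.1% (Gnl3 in saline), and its median over members was 6.75% for MAM, 7.36% for Poly I:C, 8.14% for saline and 8.55% for Low Protein pups.

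The members called lower in MAM than in Poly I:C pups were mostly those with a genomic span of 20 kb or more. Such spans were common among all genes tested, with 5127 genes at 20 to 100 kb and 1780 over 100 kb, where no member lay. Bins of span were chosen after the values were seen, and the differences in them are a description. Of the 12 members of 20 to 100 kb, 10 were called lower, with a median log2 difference of -0.25, where 20.4% of all 5127 genes tested of that span were called lower and their median was -0.10. Of the 19 members of 5 to 20 kb, 4 were called lower with a median of -0.11, against 11.6% of 4045 genes and a median of -0.03. Of the 8 members under 5 kb, none was called, with a median of -0.03, against 5.76% of 1510 genes called lower, 9.93% called higher and a median of 0.02. Tcof1 and Bop1, at 33.3 and 23.8 kb, were the 2 members of 20 to 100 kb not called, and Nop56, at 8.79 kb, was the shortest member called.

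The same order of spans was seen against saline. In MAM pups the members' median log2 difference from saline was 0.01 under 5 kb, -0.06 from 5 to 20 kb and -0.13 from 20 to 100 kb, against 0.00, -0.04 and -0.09 over all genes of those spans. In Poly I:C pups it was 0.05, 0.06 and 0.12, against -0.01, 0.01 and 0.01 over all genes. After a smooth trend on span was removed within each pup, 9 members were still lower in MAM than in Poly I:C pups, namely Brix1, Ddx21, Nop14, Nop58, Npm1, Polr1b, Utp20, Utp4 and Wdr43, against 7.59% of all genes, and none passed the adjusted p. The spans come from GRCr8 and not from the rn6 build of the files, and were used as lengths only.

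**Figure D4:**
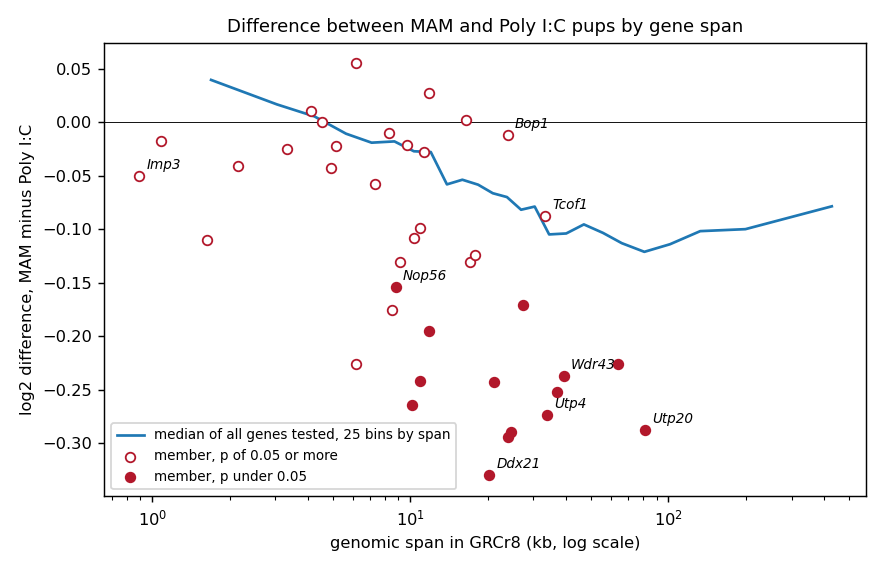
log2 difference between MAM and Poly I:C pups (y axis) of the 39 genes against genomic span in kb (x axis, log scale), filled where the unadjusted limma p was under 0.05. The line joins the medians of all genes tested in 25 bins of span, and 10 of the 12 members of 20 to 100 kb are filled and lie below it.

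Scaling also moved the count. With the median-of-ratios scaling 9 members, and with upper-quartile scaling 8, were lower in MAM than in Poly I:C pups, the members' median was -0.05 in both, and 23 of 39 lay below 0. The median of all genes moved from -0.06 to 0.00 and the split of all genes from 3.7% higher and 14.7% lower to 8.24% and 8.52% with the median of ratios. Without the first MAM litter 6 members were called and without the first Poly I:C litter 7. No member passed the adjusted p when any litter of these 2 groups was left out, or with litter means in place of pups. The 3 adjusted calls were also all lost when any 1 of the pups MAM 1.1, MAM 1.3, MAM 2.2, Poly I:C 1.1, Poly I:C 1.2, Poly I:C 2.1 or Poly I:C 2.3 was left out, although 10 to 14 members were then still called at the unadjusted threshold. Thalamus markers differed in the same comparison, with 3 of 5 lower in MAM pups and a summed value of 1.42 to 2.404 in MAM, 1.43 to 5.50 in Poly I:C, 1.59 to 4.23 in saline and 1.02 to 4.74 in Low Protein pups. Of the 13 markers of dividing progenitors, 2 were lower in MAM than in Poly I:C pups, with sums of 139 to 158 in MAM, 138 to 183 in Poly I:C, 128 to 164 in saline and 137 to 166 in Low Protein pups. None of these 5 and 13 genes was at the offset in every pup, and their part in the result was not tested.

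Low Protein pups, compared with MAM pups, had higher values of 15 members (38.5%) against 7.17% of all genes and lower values of none against 1.53%. No member passed the adjusted p, which 0.0316% of all genes did, and the pups did not overlap for 3 members, Nop56, Wdr12 and Ncl, against 0.846% of all genes. This comparison shares the MAM pups with that of MAM and Poly I:C. The 15 were Bms1, Brix1, Ddx21, Gnl3, Ncl, Noc2l, Nop14, Nop56, Nop58, Npm1, Polr1b, Rrs1, Utp4, Wdr12 and Wdr43. Nop56 had a log2 difference of 0.22 with an SE of 0.06, from 16.7 in MAM to 19.5 in Low Protein pups (limma, adjusted p = 0.247, exact permutation p = 0.00216).

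Ncl differed by 0.27 with an SE of 0.10, from 15.5 ± 1.35 in MAM to 18.6 ± 1.28 in Low Protein pups (SD, n = 6, limma, adjusted p = 0.447, exact permutation p = 0.00216). Wdr12 had values of 0.575, 0.648 and 0.700 in MAM, 0.700, 0.734 and 0.874 in Low Protein, 0.566, 0.715 and 0.757 in saline and 0.680, 0.733 and 0.792 in Poly I:C pups. Its log2 difference of 0.23 with an SE of 0.07 came from groups that nearly touched (limma, adjusted p = 0.343, exact permutation p = 0.00216). Gnl3, nucleostemin, a nucleolar GTPase known from stem cells, had the largest difference, 0.28 with an SE of 0.12, and wide spreads of 3.21 to 5.46 in Low Protein and 3.26 to 4.03 in MAM pups.

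The members' median log2 difference between Low Protein and MAM pups was 0.12 with 34 of 39 above 0. Over all genes the median was 0.05 with 65.3% above 0. This median stayed at 0.09 to 0.16 when any 1 pup or litter was left out. The count of members called, however, depended on the first Low Protein litter. Without that litter, which also leaves fewer pups, 1 member, Nop56, was called. Without the second Low Protein litter, which leaves as few, 14 were called. Without pup Low Protein 1.2 there were 9, and without either MAM litter 8. Ddx21, for example, had litter means of 4.09 and 3.59 in Low Protein and 3.31 and 3.27 in MAM pups. With a trend on span removed the count was 6, and with both other scalings it was 10, where the split of all genes moved from 7.17% higher and 1.53% lower to 4.09% and 3.23% with the median of ratios.

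Low Protein and Poly I:C pups were not separated by the test, which does not show that they were alike. No member was called in either direction, against 2.36% of all genes higher and 2.24% lower in Low Protein pups, and none passed the adjusted p that 0.0158% of all genes passed. The members' median log2 difference was -0.00, with 19 above and 20 below 0, and the median of all genes was -0.02. With upper-quartile scaling the split of all genes was 3.43% higher and 2.09% lower.

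Other genes of the pathway were counted from lists outside the 40. Beside the 14.7% of all genes that were lower and the 3.7% that were higher in MAM than in Poly I:C pups, 17 of 35 other small subunit factors tested were lower and none higher, with a median log2 difference of -0.16. Ddx10, an RNA helicase, differed by -0.47 with an SE of 0.08 (limma, adjusted p = 0.00861) and Heatr1, a UTP-A scaffold protein, by -0.41 with an SE of 0.09 (limma, adjusted p = 0.0417). Of 41 other large subunit factors, 12 were lower and 1 higher, with a median of -0.14, and Ddx18 differed by -0.31 with an SE of 0.07 (limma, adjusted p = 0.0499). Of 11 other RNA polymerase I subunits and factors 3 were lower, and of 12 exonucleases 4 were lower and 1 higher.

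Against saline, 7.91% of all genes were lower in MAM, 3.96% higher in Poly I:C and 2.65% higher in Low Protein pups. Of the 35 other small subunit factors, 5 were lower in MAM, 4 higher in Poly I:C and 3 higher in Low Protein pups. Of the 41 large subunit factors, 1 was lower in MAM, 2 higher in Poly I:C and 1 higher in Low Protein pups, which is near or below those shares. Of the 11 other RNA polymerase I genes, 1 was lower in MAM and 3 higher in Poly I:C pups. Between Low Protein and MAM pups, 14 of 35 small subunit and 14 of 41 large subunit factors were higher in Low Protein, against 7.17% of all genes. Of the 7 genes of the Myc family of regulators, 1 (Mxi1, a Myc antagonist) was lower in MAM than in Poly I:C pups, by -0.19 with an SE of 0.07, while Myc itself gave 0.02 with an SE of 0.07.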

How the data were processed

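Per the labels and the study's methods, the authors prepared stranded poly(A) libraries (TruSeq Stranded mRNA, paired ends), trimmed the reads by quality, used STAR 2.4.1d for alignment to rn6, and counted RefSeq transcripts by the E/M method of Partek. They scaled each pup to TPM and added 0.0001 as an offset. These deposited TPM values are not counts, sum to 70350.1 in every pup and were at the offset in 20.9% of cases. The plan allowed for counts, and no count model was used.

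The members and the lists were chosen with earlier results of these data known. log2 values were compared with limma 3.58.1 (R 4.3.3) in 1 fit of all 24 pups with group as the factor, over the 12653 genes above the offset in all pups, with Benjamini-Hochberg adjustment over all of them. Only the offset the authors had added was used as a pseudocount. The threshold was an unadjusted p of 0.05, with adjusted p beside it and without the fold cut that the study added for Poly I:C and Low Protein. For genes named with an exact p, mean log2 values of 6 pups against 6 were permuted in full (two-sided). The fit was tested on simulated data. The p-values measure the spread between pups, which share litters. Members were named in full where they passed the unadjusted threshold, with at least 3 for each treatment against saline, or had the highest value of their role or no overlap with saline. Members called between treatments were added after their values were seen. Genes were matched to GRCr8 spans for 97.5% of the table. Alternatives covered filters, pseudocounts, scaling, span, variance model, litters, replicate numbers and leaving out each pup and litter.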

Additional observations from a re-analysis of the deposited data

Results flagged for a closer look

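Each gene and the score were examined in each group for a pup far from the other 5 (Dixon's criterion), in 160 groups of 6 values, where chance alone marks about 1 in 20 groups. The 9 marked values are given here and no cause was tested. In Poly I:C pups, pup 1.3 stood apart for Npm1 at 15.7 (next 11.7) and for Gnl3 at 5.05 (next 4.26), both high, and for Mybbp1a at 6.58 (next 9.15) and Pes1 at 3.43 (next 3.99), both low. The score over 39 genes of the same pup was -0.0085, against 0.0674 in the next pup. Nhp2 was high in Poly I:C 2.3 at 0.0105. In saline pups, Noc2l was high in pup 2.2 at 6.19 (next 5.60), and Wdr12 was low in pup 2.1 at 0.566 (next 0.686). In MAM pups, Tcof1, a cofactor of RNA polymerase I, was high in pup 1.1 at 1.57 (next 1.38).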

How the results depend on the processing

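Median log2 differences of the members kept their direction or stayed within the replicate spread in all 6 comparisons under every alternative run, and no named member changed direction past a threshold. In each comparison with saline and in Low Protein against Poly I:C, the median was itself smaller than the saline score SD of 0.0771, so this says little there. For MAM against saline it went from -0.069 to -0.004 with the median of ratios. Counts of members called at an unadjusted p under 0.05 moved as follows. Low Protein against saline, 1 in the report, gave 2 with the study's filter (lowest group mean above 1), 2 with genes above the offset in at least 12 pups, 3 and 4 with pseudocounts of 0.1 and 1, 4 with the median of ratios, 2 with a variance trend and 0 with litter means. Poly I:C against saline, 2 in the report, gave 1 with the study's filter, which tests 31 members, 4 with the median of ratios and 0 with litter means. MAM against Poly I:C, 14 in the report, gave 7 of the 31 members tested with the study's filter, against 17.1% of all genes lower. It gave 9 with the median of ratios, 8 scaled to the upper quartile and 9 with span removed. The shares of all genes lower were then 8.52%, 8.63% and 7.59%. MAM against saline, 3 in the report and all lower in MAM, gave 2 to 4 in both directions together with all pups kept. The direction was mixed in some settings. There were 3 lower and 1 higher with a pseudocount of 1, and 1 lower and 2 higher with the median of ratios. There were 2 lower and 2 higher with the upper quartile, and 1 lower and 1 higher with span removed. Wdr43 was not called with litter means or with span removed. Low Protein against MAM, 15 in the report, gave 6 with span removed and 8 with litter means. Low Protein against Poly I:C gave 1 with a pseudocount of 1. The F test, 7 in the report, gave 3 with litter means. Except where fewer members were tested, the cause was not tested.

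Leaving out 1 pup or litter at a time gave 0 to 7 calls for Low Protein against saline, 2 to 10 for MAM against saline, 1 to 4 for Poly I:C against saline, 1 to 17 for Low Protein against MAM, 0 to 3 for Low Protein against Poly I:C, 6 to 17 for MAM against Poly I:C and 5 to 12 for the F test. The F test count was 11 without Saline 2.1 or Poly I:C 1.3 and 12 without the second Low Protein litter. Poly I:C against saline gave 4 without Poly I:C 1.3, Saline 1.2, Saline 2.2 or the first saline litter. It gave 1 without the second Poly I:C or saline litter. The shares of all genes moved as well and were not set beside these counts. The share higher in Low Protein than in MAM pups, for example, was 4.62% without Low Protein 1.2 and 9.22% without Low Protein 2.1.

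Pups of different groups share numbers but no dam. Their deviations correlated at -0.16 to 0.327 over 36 same-number pairs (median 0.0373), and 16 exceeded 0.1. Pairs with different numbers were not set beside them, so whether a number marks something shared was not tested. With the number as a replicate block, the counts were 3 for Low Protein, 4 for MAM and 2 for Poly I:C against saline, 16 for Low Protein against MAM, 15 for MAM against Poly I:C and 11 for the F test. Of all genes, 9.93% were then lower in MAM than in saline pups and 16.8% lower in MAM than in Poly I:C pups. The share higher in Low Protein pups was 8.52% against MAM and 3.18% against saline pups. In Poly I:C pups 4.49% were higher than in saline pups. Depth is known only by estimate, so counting error was not modelled.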
